A study of Mus musculus with 9 samples.

Results

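The transcription factor p53, its inhibitors and a set of its targets were followed across a control and a pair of knockdown groups of mouse melanoma cells. The 10 genes, found by symbol among the 21676 genes of the deposited tables, were Trp53 (gene ID 22059), Mdm2 (17246), Mdm4 (17248), Zmat3 (22401), Phlda3 (27280), Eda2r (245527), Sesn1 (140742), Trp53inp1 (60599), Aen (68048) and Perp (64058). With either hairpin Mdm2, Zmat3, Phlda3, Eda2r and Aen were higher than in control, and Mdm4 and Trp53 were lower. Mdm2 was 2.04-fold higher with shAD4-1 and 2.67-fold higher with shAD4-2. Sesn1 and Perp passed the test with neither hairpin.

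Total RNA of B16 cells, a mouse melanoma line derived from skin and grown in culture, was sequenced in 9 libraries. Of these, 3 came from cells with a control hairpin (shControl), 3 from cells with the hairpin shAD4-1 and 3 from cells with shAD4-2, and the series title names ADGRL4 as the subject. The labels call the hairpin groups knockdown derivatives of B16 with biological replicates. They name a single derivative per hairpin and do not say whether it is a clone or a pool, so p-values measure the spread between libraries of one derivative, and an effect of a hairpin and a difference between derivatives cannot be told apart. The hairpins' target gene is not analysed here, so the group labels were not checked against it.

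p53 is a transcription factor that damaged DNA and other stresses stabilise, and that raises genes for cell cycle arrest, repair and cell death. Mdm2 is a ubiquitin ligase that marks p53 for destruction and is itself a p53 target, which closes a negative feedback loop. Mdm4 is its relative, which binds and inhibits p53 and partners with Mdm2. p53 is regulated mainly at the level of the protein, which was not measured here, and in melanoma its activity is often held down by its inhibitors.

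The stretch before a gene's start is where p53 could bind close by, so the windows at the start sites of these genes were read from RefSeq (GRCm38.p6, 250 bases before to 50 after a start). This build is older than the authors' GRCm39. Windows were found for 7 of the 10 genes (10 windows in all), and there is none for Zmat3, Trp53inp1 and Perp. Each was searched on both strands for the p53 half-site consensus and for a pair of half-site cores, each core being a C, 2 bases that are A or T, and a G, with 6 bases between the cores. Of 32851 windows of this length, 8.36% held the first and 7.22% the second. The half-site was found at Mdm2, Trp53, Aen and Sesn1, and the core pair at Trp53 and Aen, where it overlaps the half-site. Neither was found in the windows of Mdm4, Phlda3 and Eda2r. These matches are given by gene, while the shares above are per window. Cdkn1a, a p53 target described below, was searched as well. Its window at chr17:29090729-29091028 held 2 half-sites and 1 core pair, and its other window held neither. Mdm2 and Aen were higher with both hairpins, Trp53 was lower and Sesn1 did not pass the test. Whether the matches have a part in these outcomes was not tested. Capitals mark the matched bases in a stretch from each of these 4 genes. The stretches lie at chr10:117710920-117710949 (minus strand), chr11:69580279-69580308 (plus), chr7:78895932-78895961 (plus, within an annotated Aen exon) and chr10:41887261-41887290 (plus).
Mdm2: gatagGAACTTGCCTagcgaccattgcggt
Trp53: cggaaGGACTTGCCCTTACTTGttatggcg
Aen: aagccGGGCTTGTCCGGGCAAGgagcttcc
Sesn1: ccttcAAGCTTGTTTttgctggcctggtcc

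The inhibitors Mdm2 and Mdm4 moved in opposite directions, so the 250 bases before a start of each are shown for comparison. They lie at chr10:117710759-117711008 (minus strand) for Mdm2 and chr1:133030588-133030837 (minus strand, the start farther upstream of the 2 annotated) for Mdm4, and neither overlaps an annotated exon. Mdm2 also has a second promoter in its first intron, known for its p53 sites, which these windows do not cover. A match is a run of letters and not a measured site.
Mdm2: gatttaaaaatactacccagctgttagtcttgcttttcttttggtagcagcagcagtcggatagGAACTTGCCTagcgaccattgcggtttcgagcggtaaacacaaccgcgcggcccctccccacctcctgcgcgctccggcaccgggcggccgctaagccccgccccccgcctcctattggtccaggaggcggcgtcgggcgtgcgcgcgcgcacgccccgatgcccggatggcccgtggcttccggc
Mdm4: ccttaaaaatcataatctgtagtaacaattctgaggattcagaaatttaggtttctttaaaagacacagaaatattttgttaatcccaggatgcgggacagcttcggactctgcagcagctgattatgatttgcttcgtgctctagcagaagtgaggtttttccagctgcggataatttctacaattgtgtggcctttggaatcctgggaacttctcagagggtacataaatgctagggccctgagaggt

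Levels are given as CPM, reads per M reads of the TMM-scaled library size, and comparisons as log2 fold changes from edgeR's quasi-likelihood test over 13807 genes, called at a Benjamini-Hochberg adjusted p under 0.05. Across the whole series, libraries held 31.3 to 36.9 M reads, and the biological coefficient of variation was 5.15%. Control replicate 1 was the most distant of the controls (chi-square per degree of freedom 11.8 and 17.2, against 3.36 between replicates 2 and 3). The share of reads from 13 mitochondrially encoded genes was 2.30 to 2.61% in control, 3.62 to 3.81% with shAD4-1 and 3.6 to 3.89% with shAD4-2, so it moved with every comparison against control below. The melanocyte lineage of B16 was plain in its 7 marker genes, which summed to 11066 to 12684 CPM in control, 9882 to 10095 with shAD4-1 and 10718 to 11717 with shAD4-2. Markers of other cells were low beside these. The 5 leukocyte markers in the table, 2 of them tested, summed to 3.20 to 3.74 CPM in control, 7.07 to 7.86 with shAD4-1 and 7.67 to 8.51 with shAD4-2, with Ptprc at 0 reads in control and shAD4-2 and Cd3e at 0 with shAD4-1. The 4 fibroblast markers summed to 5.08 to 7.10, 10.4 to 12.2 and 12.4 to 14 CPM, with Lum at 0 in control and shAD4-2, and the 4 endothelial markers to 0.585 to 0.697, 0.936 to 1.05 and 1.55 to 1.84 CPM, with Cdh5 at 0 in the same groups. The keratinocyte marker Krt10 reached at most 0.107 CPM. The part of these shifts in the results was not tested, and in bulk RNA fewer cells of a type and less RNA per cell cannot be told apart.

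With shAD4-1, 7 of the 10 genes were called, 5 higher and 2 lower, where 65% of all tested genes were called (32.7% higher and 32.3% lower). With shAD4-2, 8 were called, 6 higher and 2 lower, against a background of 69% (34.2% and 34.8%). The share of the 10 that changed was thus close to that of all genes, and the rest of the account concerns their sizes and directions. The median over the 10 genes was 0.42 on the log2 scale for shAD4-1 and 0.40 for shAD4-2, beside -0.01 over all tested genes in both comparisons. The 10 genes were chosen with earlier results of these data known, which can favour such a shift, and it was not tested. Mdm2 and Eda2r rose at least 2-fold with either hairpin, as did 5.99% of tested genes with shAD4-1 and 6.39% with shAD4-2. With both hairpins 5 of the 10 were higher and 2 lower, beside 28.1% and 27.6% of tested genes. The libraries of 7 of the 10 genes did not overlap with control for shAD4-1, and those of 7 for shAD4-2, beside 68% and 70.6% of tested genes. Both comparisons share the 3 control libraries. Without control replicate 1 the counts were 8 and 8, with Trp53inp1 called with shAD4-1 as well. In that setting 9206 of 14028 tested genes were called with shAD4-1 and 9704 with shAD4-2.

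**Figure D1:**
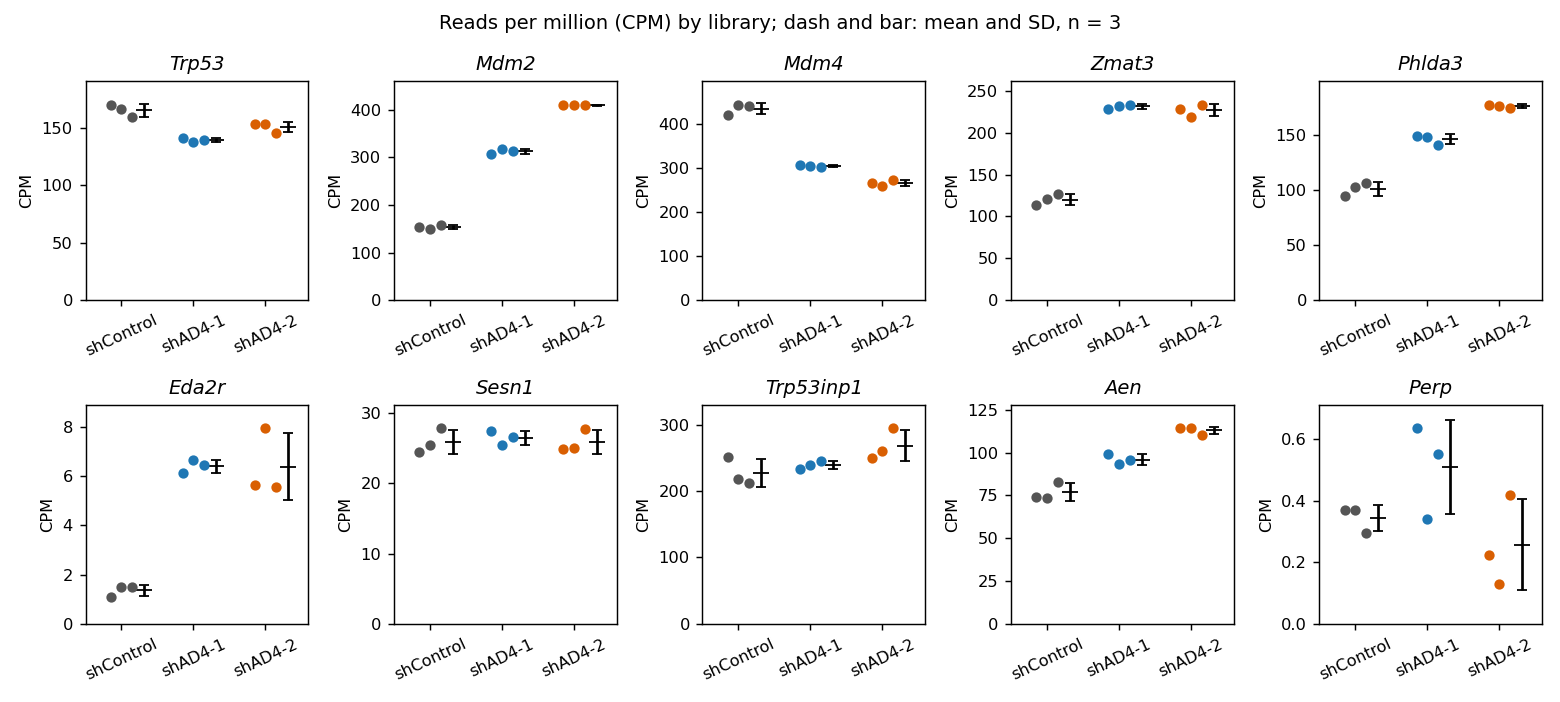
Level of each of the 10 genes in every library (CPM, linear axis from 0), with points for libraries and a dash and bar for the mean and SD of 3 libraries. Mdm2 sat at 149.6 to 157 CPM in control, 307 to 317 with shAD4-1 and 409 to 411 with shAD4-2, while Mdm4 ran the other way and the groups of Sesn1 and Perp overlapped.

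Trp53, the gene of p53 itself, stood at 170.5, 166 and 159 CPM in control, 141, 137 and 139.6 CPM with shAD4-1 and 154, 154 and 146 CPM with shAD4-2. Each control library was above each hairpin library, and shAD4-1 was the lowest group. Against control, the log2 fold change of shAD4-1 was -0.25 (SE 0.04, edgeR adjusted p = 2.19e-05) and that of shAD4-2 -0.13 (SE 0.04, edgeR adjusted p = 0.00654). These are small changes, 1.19-fold and 1.09-fold lower, where the median size over all tested genes was 0.34 and 0.38 on the log2 scale. The second call was lost without shAD4-2 replicate 3 (log2 fold change -0.09, edgeR adjusted p = 0.0607). Wrap53, which lies beside Trp53 and was chosen here after its values were seen, had means of 12.6, 12 and 13.3 CPM and passed the test in no comparison.

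Mdm2, the ubiquitin ligase, stood at 154, 149.6 and 157 CPM in control, 307, 317 and 314 CPM with shAD4-1 and 411, 409 and 409.8 CPM with shAD4-2. The groups were far apart and the libraries within each lay close together. Against control, the log2 fold change of shAD4-1 was 1.03 (SE 0.04, edgeR adjusted p = 2.04e-14) and that of shAD4-2 1.42 (SE 0.04, edgeR adjusted p = 1.51e-16). Mdm4 stood at 422, 445 and 441 CPM in control, 308, 305 and 302 CPM with shAD4-1 and 266, 260.2 and 273 CPM with shAD4-2. Control was the highest group for Mdm4 and shAD4-2 the lowest, with no overlap. Mdm4 was 1.43-fold lower with shAD4-1 (log2 fold change -0.52, SE 0.04, edgeR adjusted p = 4.15e-10) and 1.64-fold lower with shAD4-2 (-0.71, SE 0.04, edgeR adjusted p = 4.16e-12).

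Set against each other per transcript length (FPKM), Mdm2 lay below Mdm4 in control, overlapped with it with shAD4-1 and lay above it with shAD4-2. The ratio of Mdm2 to Mdm4 was 0.349 ± 0.0143 in control, 1.02 ± 0.0240 with shAD4-1 and 1.53 ± 0.0361 with shAD4-2 (SD, n = 3 each). Mdm2 to Trp53 went from 0.287 ± 0.0150 to 0.694 ± 0.0207 and 0.839 ± 0.0241, and Mdm4 to Trp53 from 0.822 ± 0.0458 to 0.681 ± 0.00860 and 0.550 ± 0.0288. For all 3 ratios the 3 groups did not overlap. Each exact two-sided permutation test over libraries gave p = 0.1, the smallest that 3 against 3 libraries allow, so 0.05 cannot be reached.

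**Figure D2:**
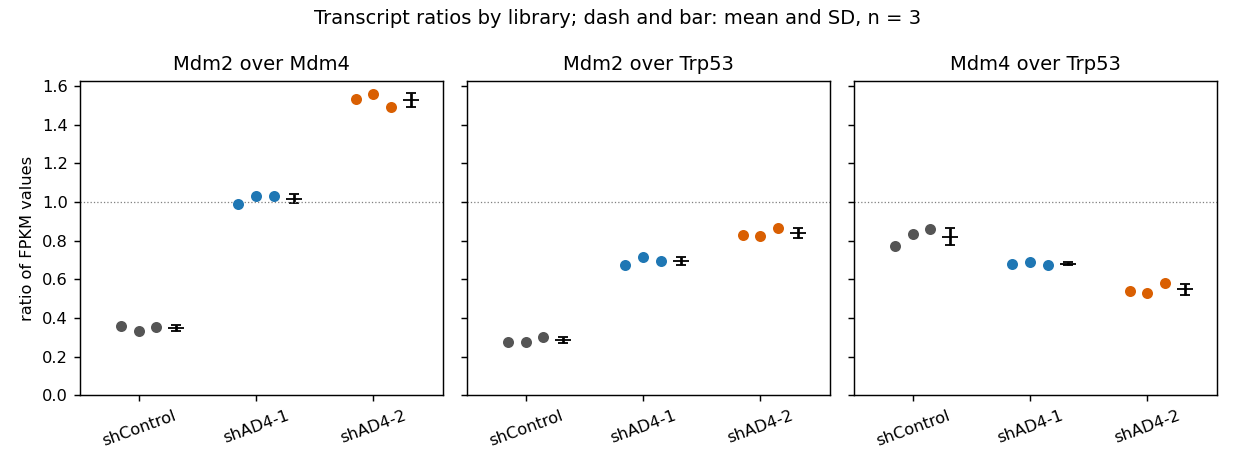
Ratios of FPKM values in every library for the pairs Mdm2 over Mdm4, Mdm2 over Trp53 and Mdm4 over Trp53 (linear axis from 0, dotted line at 1, dash and bar for the mean and SD of 3 libraries). Mdm2 over Mdm4 lay under 1 in the 3 control libraries and above 1 in the 3 shAD4-2 libraries, and ran from 0.990 to 1.03 with shAD4-1.

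Of the target genes, Eda2r, a receptor of the tumour necrosis factor receptor family for ectodysplasin A2, had the largest fold change of the 10 genes. It was measured with 36, 53 and 56 reads in control (1.11, 1.5 and 1.5 CPM), 222, 235 and 234 reads with shAD4-1 (6.12, 6.66 and 6.44 CPM) and 203, 246 and 173 reads with shAD4-2 (5.65, 7.96 and 5.58 CPM). Every hairpin library was well above every control library, and shAD4-2 replicate 2 was the highest. The fold change was 4.65 with shAD4-1 (log2 2.22, SE 0.18, edgeR adjusted p = 4.66e-09) and 4.63 with shAD4-2 (log2 2.21, SE 0.18, edgeR adjusted p = 4.29e-09).

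Zmat3, an RNA-binding zinc finger protein that regulates splicing, stood at 113, 121 and 126 CPM in control, 229, 232 and 234 CPM with shAD4-1 and 229, 219 and 234 CPM with shAD4-2. The hairpin groups overlapped each other and lay above control. Against control, the log2 fold change of shAD4-1 was 0.95 (SE 0.04, edgeR adjusted p = 1.08e-12) and that of shAD4-2 0.92 (SE 0.04, edgeR adjusted p = 1.38e-12). Phlda3, a pleckstrin-homology protein that restrains Akt, stood at 94.6, 103 and 107 CPM in control, 149, 149 and 141 CPM with shAD4-1 and 178, 177 and 175 CPM with shAD4-2. The 3 groups formed 3 separate steps. It was 1.44-fold higher with shAD4-1 (log2 0.53, SE 0.05, edgeR adjusted p = 7.80e-09) and 1.74-fold higher with shAD4-2 (log2 0.80, SE 0.05, edgeR adjusted p = 2.04e-11).

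Aen, an apoptosis-enhancing nuclease, stood at 74.0, 73.7 and 82.8 CPM in control, 99.2, 93.1 and 95.5 CPM with shAD4-1 and 114, 114 and 110.4 CPM with shAD4-2. It formed the same 3 steps as Phlda3. Against control, the log2 fold change of shAD4-1 was 0.32 (SE 0.05, edgeR adjusted p = 1.28e-05) and that of shAD4-2 0.56 (SE 0.05, edgeR adjusted p = 8.85e-09). Trp53inp1, a stress-induced nuclear protein with roles in cell death and autophagy, stood at 252, 219 and 213 CPM in control, 233, 239.6 and 246 CPM with shAD4-1 and 249.7, 261 and 295 CPM with shAD4-2. Control replicate 1 was the highest control, above the 3 shAD4-1 libraries and within the range of shAD4-2, and the other controls lay below every hairpin library. Against control, the log2 fold change of shAD4-1 was 0.07 (SE 0.06, edgeR adjusted p = 0.306) and that of shAD4-2 0.24 (SE 0.06, edgeR adjusted p = 0.00196). Without control replicate 1 these were 0.16 (edgeR adjusted p = 0.00436) and 0.32 (edgeR adjusted p = 6.07e-07), and with limma on log2(FPKM + 1) without a filter on low values the second was 0.18 (adjusted p = 0.112).

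Sesn1, a stress-induced sestrin that restrains mTORC1, stood at 24.4, 25.4 and 27.8 CPM in control, 27.4, 25.4 and 26.5 CPM with shAD4-1 and 24.8, 25 and 27.8 CPM with shAD4-2. The 3 groups overlapped throughout. The 95% intervals of the log2 fold change were -0.11 to 0.18 with shAD4-1 and -0.15 to 0.14 with shAD4-2. Perp, a membrane protein of desmosomes and a p53 target in cell death, had only 36 reads over the control group, 55 with shAD4-1 and 25 with shAD4-2. At this depth its intervals were wide, -0.38 to 1.51 with shAD4-1 and -1.47 to 0.64 with shAD4-2, and no difference was detectable.

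**Figure D3:**
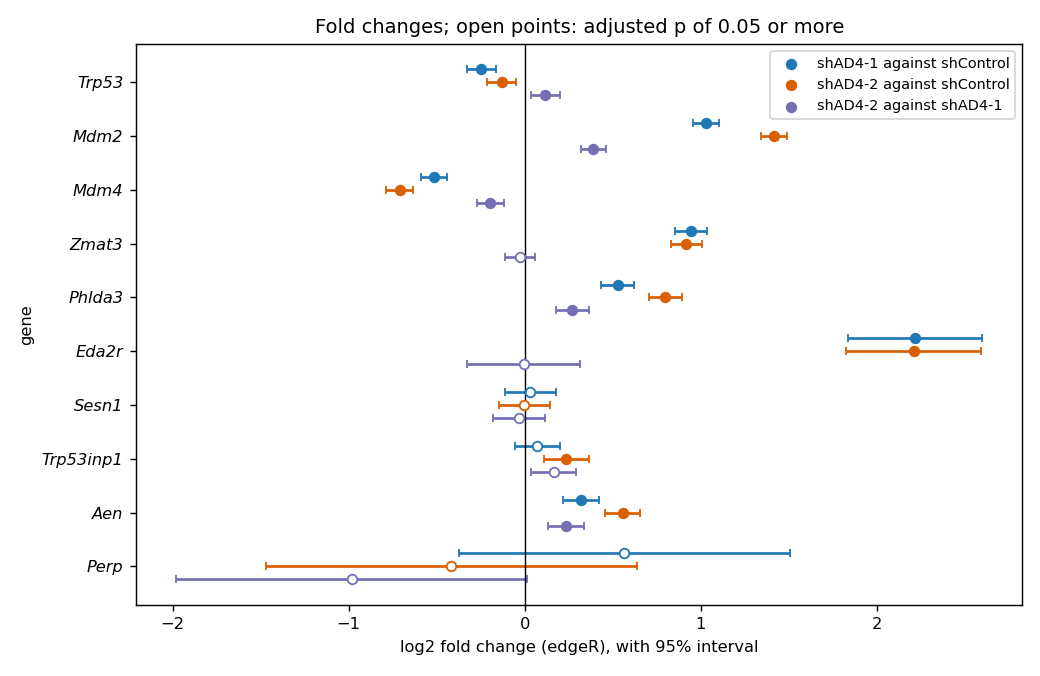
Log2 fold change of each of the 10 genes with its 95% interval (edgeR) for shAD4-1 against shControl, shAD4-2 against shControl and shAD4-2 against shAD4-1, with open points where the adjusted p was 0.05 or more. Mdm2 and Eda2r lay above 1 with both hairpins, Mdm4 lay at -0.52 and -0.71, and the intervals of Sesn1 and Perp crossed 0 with both hairpins.

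Ordered by the level per transcript length in control, Trp53 led with 74.1 ± 2.71 FPKM, followed by Phlda3 (71.0 ± 4.20), Mdm4 (60.9 ± 1.42), Trp53inp1 (43.1 ± 4.14), Mdm2 (21.2 ± 0.556), Aen (15.5 ± 1.03), Zmat3 (15.2 ± 0.776), Sesn1 (7.95 ± 0.527), Eda2r (0.242 ± 0.0391) and Perp (0.186 ± 0.0232; SD, n = 3 each). Trp53 and Phlda3 overlapped in this order, as did Aen and Zmat3, and Eda2r and Perp. With shAD4-2 the order was Phlda3 (119 ± 0.947 FPKM), Trp53 (65.1 ± 1.85), Mdm2 (54.6 ± 0.122), Trp53inp1 (48.8 ± 4.30), Mdm4 (35.8 ± 0.869), Zmat3 (27.6 ± 0.921), Aen (21.9 ± 0.420), Sesn1 (7.65 ± 0.493), Eda2r (1.08 ± 0.230) and Perp (0.133 ± 0.0768), with no neighbours overlapping. With shAD4-1 Phlda3 was also first, at 98.4 ± 3.20 FPKM, and Mdm2 and Mdm4 overlapped at 41.6 ± 0.645 and 40.9 ± 0.409 FPKM. In both hairpin groups Phlda3 stood above Trp53, and Zmat3 above Aen, in every library.

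The hairpins were then compared with each other, with the filter, the scaling and the estimate of spread taken from all 9 libraries. Of the 10 genes 5 were called, 4 higher and 1 lower with shAD4-2, where 27.4% of tested genes were called (13.4% higher and 14% lower). The libraries of 6 genes did not overlap between the hairpins, beside 44.5% of tested genes. Mdm2 was 1.31-fold higher with shAD4-2 (log2 difference 0.39, SE 0.03, edgeR adjusted p = 4.52e-07), Phlda3 1.21-fold (0.27, SE 0.04, edgeR adjusted p = 2.06e-04) and Aen 1.18-fold (0.24, SE 0.05, edgeR adjusted p = 0.00134). Mdm4 was 1.15-fold lower (-0.20, SE 0.04, edgeR adjusted p = 5.37e-04). For these 4 genes the second hairpin lay farther from control in the direction of the first. Trp53 was the exception: it was higher with shAD4-2 than with shAD4-1 (0.12, SE 0.04, edgeR adjusted p = 0.0353) and so closer to control, a call kept in 11 of 19 alternatives. Without control replicate 1, 6 of the 10 were called, Trp53inp1 being added, where 4937 of 14028 tested genes were called. With all 9 libraries Trp53inp1 lay just past the threshold (0.16, SE 0.06, edgeR adjusted p = 0.0503). It was called in 7 of 19 alternatives. For Zmat3 the interval of the difference was -0.11 to 0.06 and for Eda2r -0.33 to 0.32.

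Of 6 lists of other genes in the pathway, 3 concern regulators. Among all tested genes, 32.7% were higher and 32.3% lower with shAD4-1, and 34.2% and 34.8% with shAD4-2. Among 5 tested p53 relatives and binding partners, 1 was higher and 1 lower with shAD4-1, and 2 were higher and 1 lower with shAD4-2. Trp53inp2, the paralogue of Trp53inp1, rose in both, from 144 ± 6.02 to 176 ± 2.33 and 180.4 ± 8.01 CPM. Ppp1r13b, which encodes the p53-binding protein ASPP1, was lower in both, at 49.5 ± 3.83, 37.8 ± 4.20 and 37.6 ± 3.42 CPM. Trp53bp1, a scaffold of the DNA damage response, was called with shAD4-2 (log2 fold change 0.19, SE 0.04). With shAD4-1 it was 0.10 (edgeR adjusted p = 0.0611). It was called without control replicate 2 (0.13), without shAD4-2 replicate 3 (0.11) or with no filter on low counts (0.11). Trp53bp2 (ASPP2) was called in neither comparison, with log2 fold changes of -0.08 and 0.00. Limma on log2(FPKM + 1) called Trp53bp2 lower with shAD4-1 (-0.13, adjusted p = 0.00821), where the median over all tested genes was -0.05. Trp63 and Trp73 had too few reads to be tested.

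Of 8 kinases and phosphatases acting on p53, 6 were higher and 1 lower with shAD4-1, and 4 were higher and 1 lower with shAD4-2, with median log2 fold changes of 0.19 and 0.18. Over all tested genes 65% were called with shAD4-1 and 69% with shAD4-2, with a median of -0.01 in both comparisons. Chek1, the checkpoint kinase, rose from 10.9 ± 0.613 CPM to 24.1 ± 2.93 (2.20-fold) and 28.8 ± 4.05 (2.63-fold). Hipk2, a kinase that phosphorylates p53, rose 1.17-fold and 1.27-fold. Dyrk2, another such kinase, rose 1.13-fold and 1.35-fold, the first of which was not called by limma on FPKM values (adjusted p = 0.0916 with a pseudocount of 1). Atm, the kinase that signals double-strand breaks, was 1.19-fold and 1.14-fold lower. Ppm1d, the phosphatase that reverses p53 phosphorylation and is a p53 target, had 20.8 ± 0.640, 19.4 ± 1.36 and 23.0 ± 1.24 CPM and was called in neither comparison with control. Limma on log2(FPKM + 1) called Ppm1d lower with shAD4-1 (-0.14, adjusted p = 0.0423), where the median over all tested genes was -0.05. EdgeR without shAD4-2 replicate 3 called Ppm1d higher with shAD4-2 (0.19, adjusted p = 0.0423).

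Among 14 tested ubiquitin, acetyl and ARF regulators, 8 were higher and 3 lower with shAD4-1, and 7 were higher and 4 lower with shAD4-2. The shares called over all tested genes were 65% with shAD4-1 and 69% with shAD4-2. Sirt1, a deacetylase of p53, rose from 16 ± 2.80 to 27.8 ± 0.886 CPM (1.74-fold) and 34.1 ± 1.56 CPM (2.14-fold). Ep300, an acetyltransferase of p53, rose 1.34-fold and 1.45-fold. Cop1, a further ubiquitin ligase for p53, was 1.28-fold and 1.33-fold lower. Rpl5, a ribosomal protein that binds Mdm2, was 1.35-fold and 1.46-fold lower, at 1109 ± 67.9, 824 ± 18.8 and 762 ± 23.4 CPM. Cdkn2a, the gene of ARF, is not analysed here.

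The other 3 lists hold further p53 targets, of which 32 of 34 were tested. With shAD4-1, 12 of them were higher and 9 lower, and with shAD4-2 15 were higher and 10 lower, with median log2 fold changes of 0.06 and 0.17. Calls ran in both directions, as over all tested genes, of which 32.7% were higher and 32.3% lower with shAD4-1 and 34.2% and 34.8% with shAD4-2. No difference between the 3 lists was tested.

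In the list for cell cycle arrest 6 of 9 tested genes were higher and 1 lower with shAD4-1 (median 0.31), and 8 were higher and none lower with shAD4-2 (median 0.63). The background over all tested genes was 32.7% higher and 32.3% lower with shAD4-1, and 34.2% and 34.8% with shAD4-2. Its median was -0.01 in both comparisons. Cdkn1a, the inhibitor p21 and the best known p53 target of arrest, stood at 517, 553 and 569 CPM in control, 513, 493 and 498 CPM with shAD4-1 and 656, 644 and 630.0 CPM with shAD4-2. It moved in opposite directions: shAD4-1 lay below all control libraries and shAD4-2 above them. The log2 fold changes were -0.12 (SE 0.04, edgeR adjusted p = 0.00944) and 0.24 (SE 0.04, edgeR adjusted p = 2.85e-05), and the difference between hairpins was 0.36 (SE 0.04, edgeR adjusted p = 3.69e-06). The call for shAD4-1 was lost without control replicate 3 (edgeR adjusted p = 0.0687) and without shAD4-1 replicate 2 (edgeR adjusted p = 0.0509). Ccng1, cyclin G1, rose from 368 ± 21.0 to 456 ± 11.7 and 592 ± 15.5 CPM. Gadd45a, a growth arrest and DNA damage gene, rose from 132 ± 6.75 to 248 ± 6.10 and 204 ± 3.59 CPM, more with shAD4-1 than with shAD4-2 (log2 difference -0.28, SE 0.04, edgeR adjusted p = 6.42e-05). Plk3, a polo-like kinase, rose 1.88-fold and 1.81-fold, and Btg2, an antiproliferative gene, 1.24-fold and 1.43-fold. E2f7, a repressor of cell cycle genes, rose 1.48-fold and 2.30-fold, and Sfn, the checkpoint protein 14-3-3 sigma, 1.86-fold and 1.79-fold. E2f7 and Sfn were chosen after their values were seen.

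In the list for cell death 2 of 11 tested genes were higher and 4 lower with either hairpin, with a median of -0.04 in both comparisons. The shares called over all tested genes were 65% with shAD4-1 and 69% with shAD4-2, with a median of -0.01 in both. Tnfrsf10b, a death receptor, stood at 28.9, 27.9 and 29.6 CPM in control, 57.5, 56.0 and 60.9 CPM with shAD4-1 and 77.9, 78.0 and 80.1 CPM with shAD4-2. The groups were far apart, 2.02-fold and 2.73-fold above control. Fas, another death receptor, which was chosen after its values were seen, went the other way on few reads, 40, 58 and 41 in control, 25, 17 and 24 with shAD4-1 and 11, 6 and 9 with shAD4-2. It was 2.16-fold (edgeR adjusted p = 0.00611) and 4.94-fold lower (edgeR adjusted p = 2.39e-05). Bbc3, the BH3-only protein Puma, stood at 42.7, 50 and 54.2 CPM in control, 34.8, 34.5 and 32 CPM with shAD4-1 and 30.1, 32.3 and 33.2 CPM with shAD4-2. It was lower in every hairpin library, 1.45-fold and 1.54-fold. Apaf1, the core of the apoptosome, rose 1.26-fold and 1.29-fold, and Ei24 was 1.31-fold and 1.24-fold lower. Bax, the pore-forming effector, was called in neither comparison (log2 fold changes -0.04 and -0.05, SE 0.04 each), while limma on log2(FPKM + 1) gave -0.10 (adjusted p = 0.0465) and -0.11 (adjusted p = 0.0327). In that limma setting the median over all tested genes was -0.05 with shAD4-1 and -0.04 with shAD4-2. Pmaip1 is not analysed here.

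In the list for repair and metabolism 4 of 12 genes were higher and 4 lower with shAD4-1 (median 0.10), and 5 were higher and 6 lower with shAD4-2 (median -0.13). All tested genes gave 65% called with shAD4-1 and 69% with shAD4-2, and a median of -0.01 in both. Gdf15, a secreted stress cytokine, was measured with 3, 6 and 6 reads in control, 95, 77 and 93 with shAD4-1 and 66, 65 and 49 with shAD4-2. Every hairpin library was far above control, 16.8-fold and 12.6-fold by the fit, on a control level that rests on 15 reads. Pank1, a pantothenate kinase of coenzyme A synthesis, rose 1.91-fold and 1.78-fold. Ddb2, a sensor of ultraviolet lesions, was lower at 16.9 ± 0.467, 11.6 ± 0.522 and 10.6 ± 0.330 CPM. Polk, a translesion polymerase, was 1.27-fold and 1.18-fold lower.

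**Figure D4:**
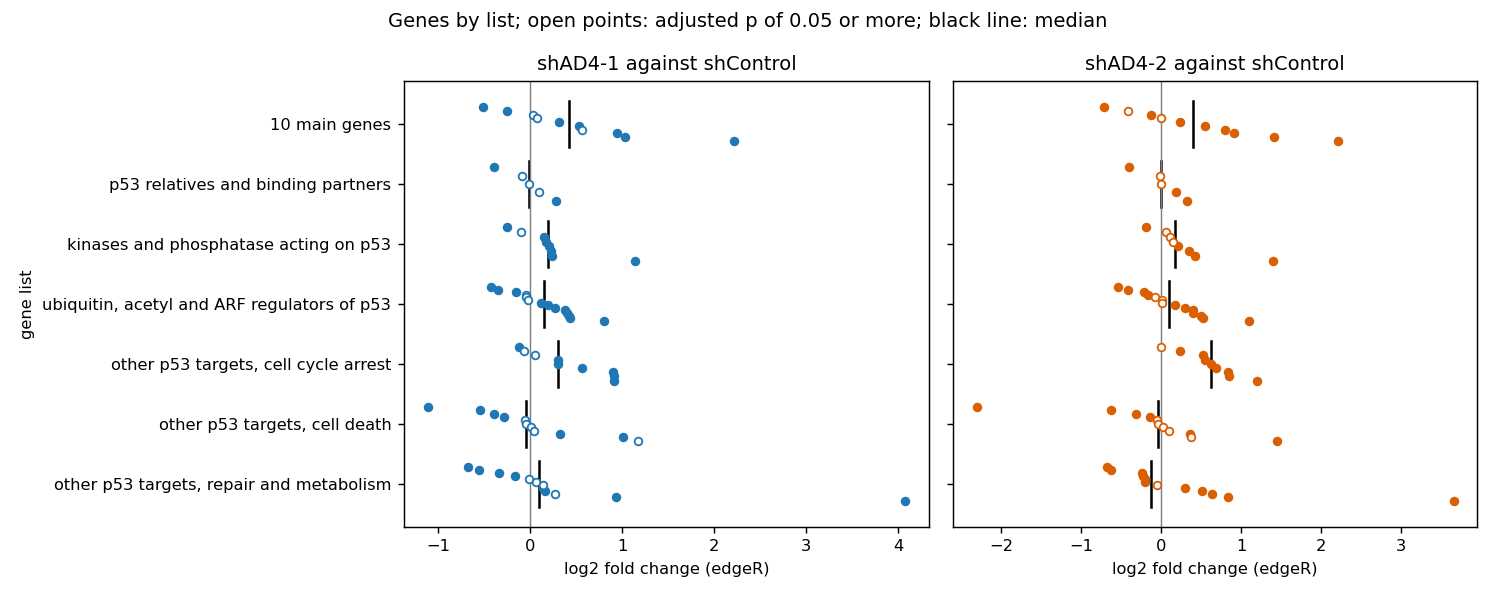
Log2 fold change of each tested gene against shControl, by list, with the 10 genes of the p53 set in the top row (open points: adjusted p of 0.05 or more, black line: median of the list). The median of the arrest list lies at 0.31 with shAD4-1 and 0.63 with shAD4-2, and that of the cell death list at -0.04 in both. Over all tested genes the median was -0.01 in both, and no difference between lists was tested.

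The 3 genes whose pattern over the 9 libraries lay nearest to that of Trp53 were Ncoa5, Gid8 and Cpsf2, by Euclidean distance of centred log2 CPM (0.0837, 0.0994 and 0.1) among tested genes with a mean of at least 5 CPM. Ncoa5, a nuclear receptor coactivator, had 55.7 ± 2.10, 47.5 ± 0.979 and 51.0 ± 1.57 CPM in control, shAD4-1 and shAD4-2. Gid8, a subunit of a ubiquitin ligase complex, had 94.9 ± 5.94, 80.2 ± 1.5 and 88.2 ± 1.22 CPM, and Cpsf2, of the cleavage and polyadenylation complex, 155 ± 2.00, 133 ± 2.36 and 143 ± 1.04 CPM. All 3 had control highest and shAD4-1 lowest, as Trp53 did, which the choice by distance favours.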

How the data were processed

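The authors deposited read counts and FPKM for 21676 genes in 9 libraries. They used fastp, HISAT2, HTSeq and GRCm39, per the submitters' processing notes. The strand setting and versions: not given in the sources used here. Column names were matched to the labels by hairpin number. All nonzero deposited FPKM values gave gene lengths within 0.01 of a whole number, so both tables hold the same reads. Libraries were made with a VAHTS Universal V6 kit, per the labels' protocols.

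Counts were tested with edgeR 4.0.16 (R 4.3.3) using filterByExpr (13807 genes, 99.968% of reads), TMM and the quasi-likelihood test over all 9 libraries with group as the only term. Benjamini-Hochberg adjustment ran over the 13807 genes. SEs are the log2 fold change over the square root of F. The genes and lists were chosen with earlier results of these data known. Named genes were the 10 genes, Cdkn1a, Bax, Bbc3, Ccng1, Cdkn2a, Ppm1d, up to 4 genes per list by the smallest geometric mean of both adjusted p-values against control, and the 3 nearest to Trp53. Rprm, of the arrest list, is not analysed here. In an older annotation (GRCm38) no exon of the 10 genes overlapped another gene's. Scripts were tested on simulated data with changes set in better covered genes. They recovered 70 to 74% of 1.25-fold changes, 90 to 96% of 1.5-fold and 100% of 2-fold changes. False calls numbered 9 to 17 per comparison, and changes below 1.25-fold were not simulated. Alternatives were DESeq2 1.42.0, upper-quartile and RLE scaling, other filters, only the 2 groups compared, a replicate block, each library left out, and limma 3.58.1 on log2 FPKM. Same-numbered libraries did not deviate together (r from -0.152 to 0.164), so the numbers were not taken as pairs.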

Additional observations from a re-analysis of the deposited data

Results flagged for a closer look

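For 5 of the 10 genes the response differed between the hairpins by a test of the difference itself (edgeR, shAD4-2 against shAD4-1), where 27.4% of all tested genes did. The log2 difference was 0.39 for Mdm2, 0.27 for Phlda3, 0.24 for Aen and -0.20 for Mdm4, each with shAD4-2 farther from control. It was 0.12 for Trp53, with shAD4-2 closer to control, and this call held in 11 of 19 alternatives. The share of mitochondrial reads overlapped, at 3.62 to 3.81% with shAD4-1 and 3.6 to 3.89% with shAD4-2 (exact two-sided permutation p = 0.9, smallest possible 0.1). Its smallest possible p lies above the threshold for calls, so this test cannot decide whether the share differs. A part of this share in the differences between the hairpins was not tested.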

How the results depend on the processing

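No comparison of the 10 genes or of the other named genes changed direction while called in either setting. Leaving out a library, the genes called ran from 8372 to 9206 for shAD4-1, 8985 to 9704 for shAD4-2 and 2785 to 4937 between hairpins. In these settings 14015 to 14084 genes were tested, and the 10 genes gave 7 to 8, 7 to 8 and 4 to 6 calls. Under the other alternatives the 10 gave 7, 7 to 8 and 4 to 6. Beside these, 7855 to 9181, 8261 to 9720 and 2698 to 4817 of all genes were called, with 11121 to 21676 tested. With the replicate number as a block, genes called were 8833, 9375 and 3511, the 10 genes gave 7, 8 and 5, and no call among the 10 changed; 0 libraries correlated best with their own number in both other groups. Of 187 values of the 10 genes per comparison under an alternative, 186, 185 and 172 kept their side of the threshold. On log2(FPKM + 1) Eda2r's fold change is understated, since its level is near the pseudocount. Counts for the pathway lists against control moved by at most 2 genes under any of 19 alternatives, which were added for the lists after the data were seen. Depth limits Perp, Fas in shAD4-2 and Gdf15 in control; the causes of lost calls were not tested.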
